A study of Mus musculus with 6 samples.

Results

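Transcripts of the fibroblast growth factor (FGF) receptors and of the genes that report on their signalling were compared between 2 groups of type II cells, the epithelial cells of the alveolus that make surfactant. One group came from mice labelled as knockouts of the adhesion receptor Gpr116 and the other from control mice. The genes were Fgfr1, Fgfr2, Fgfr3 and Fgfr4, the feedback inhibitors Spry1, Spry2, Spry4 and Dusp6, and the transcription factors Etv4 and Etv5. They were chosen by name, and each had a probe set (a group of probes for 1 transcript) with exactly 1 gene symbol, so all 10 of 10 were measured among 19938 genes. Each of 6 Affymetrix arrays held RNA pooled from the cells of 3 mice aged 8 weeks, with 3 pools per group. Both groups carried SP-C-rtTA, a tetracycline-controlled transactivator, together with (tetO)7CMV-Cre, the Cre recombinase it switches on. The mice labelled knockout also carried Gpr116flx/flx, the conditional allele, and were thus triple-transgenic, while the controls were double-transgenic. The surfactant protein C promoter drives the transactivator, which limits Cre to cells that use this promoter. The cells were isolated with collagenase and differential plating and were not sorted. The labels call the mice littermates matched for sex and age, and the p values below measure the spread between pools and not between single animals.

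FGF receptors are tyrosine kinases that bind an FGF ligand together with heparan sulfate and pass the signal through adaptor proteins to Ras and the ERK kinases. ERK signalling induces the ETS factors Etv4 and Etv5 and also its own brakes, the Sprouty proteins and the ERK phosphatase Dusp6, so these transcripts are widely used as a readout of the pathway. In the lung, mesenchymal cells make Fgf7 and Fgf10, and the epithelium receives both through a splice form of Fgfr2. Etv5 is known for its part in keeping type II cells in their state.

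Before the results, 3 facts on the arrays bear on them. Gpr116 (Adgrf5 in the annotation) read 11.89, 11.78 and 11.87 on log2 on the arrays labelled knockout, above the 11.49, 11.53 and 11.51 of the controls. The position of its probes against the conditional exons is unknown here, the array therefore cannot check the deletion, and every direction below rests on the labels. Genes varied more among the arrays labelled knockout (median SD 0.0907) than among the controls (0.0625). By Xist and 3 Y-linked genes, knockout 2 and control 1 were male pools and the other pools female. All 9 measured type II markers were bright on every array, and 1 of them rose (Lamp3). Their summed level on log2 was 15.9 to 15.95 on the arrays labelled knockout, against 15.85 to 15.86 in the controls. For 6 of the 9 the groups did not overlap, beside 27.6% of all genes, and 7 of the 9 differences were above 0. Of 9 macrophage markers 7 lay below the median of every array, and by limma 0 were called and 0 had an unadjusted p under 0.05, as was the case for 9 lymphocyte markers. The summed level of the lymphocyte markers was 10.2 on knockout 1 and 9.54 to 9.62 on the other arrays. Of 8 type I cell markers 1 rose (Ager), and 5 had an unadjusted p under 0.05 by limma. Their differences were above 0 for 6 and below 0 for 2, Aqp5 (-0.38) and Hopx (-0.26), without a call. Of 10 endothelial markers Pecam1 rose and Kdr, a receptor for vascular endothelial growth factor, fell, beside 8.49% of all genes called. The differences of the 10 were above 0 for 8 and below 0 for 2. By limma, 5 had an unadjusted p under 0.05, beside 22.1% of all genes, and for 5 the groups did not overlap. Pecam1 was among the 5 endothelial markers that lay below the median of every array.

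The sequences before the transcription starts of 3 receptor genes are shown because these receptors behaved differently: Fgfr3 fell, Fgfr2 was not called, and Fgfr4 varied most between the arrays labelled knockout. Each line gives the 250 bases upstream of a RefSeq start (GRCm38.p6), 5′ to 3′ on the gene's strand. Capitals mark CCGGAA, a form of the core bound by ETS factors such as Etv4 and Etv5, searched on both strands. The window of Fgfr3 is chr5:33721474-33721723 (plus strand), the first of 2 for this gene, that of Fgfr2 is chr7:130266809-130267058 (minus strand) and that of Fgfr4 is chr13:55152568-55152817 (plus strand).
Fgfr3: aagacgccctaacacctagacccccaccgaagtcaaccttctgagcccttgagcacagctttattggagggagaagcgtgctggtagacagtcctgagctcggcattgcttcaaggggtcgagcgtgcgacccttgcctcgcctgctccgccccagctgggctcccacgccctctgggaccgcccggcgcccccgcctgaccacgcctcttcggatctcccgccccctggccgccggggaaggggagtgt
Fgfr2: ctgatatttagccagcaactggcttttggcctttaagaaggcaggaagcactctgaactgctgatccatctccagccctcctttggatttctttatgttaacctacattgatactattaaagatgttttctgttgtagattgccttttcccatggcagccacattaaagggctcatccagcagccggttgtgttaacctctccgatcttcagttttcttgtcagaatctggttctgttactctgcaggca
Fgfr4: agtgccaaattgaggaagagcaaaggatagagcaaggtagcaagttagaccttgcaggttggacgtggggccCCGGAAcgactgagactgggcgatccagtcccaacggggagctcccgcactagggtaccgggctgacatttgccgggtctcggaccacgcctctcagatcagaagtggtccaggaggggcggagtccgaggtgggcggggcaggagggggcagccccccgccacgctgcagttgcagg
The windows differ in base composition. G and C made up 66.8% of the Fgfr3 window, 44% of that of Fgfr2 and 64% of that of Fgfr4, and the median of all 32851 windows in the table was 52.4%. Windows for 7 of the 10 genes are described, 9 windows in all. Of these the Fgfr4 window alone held CCGGAA, starting 178 bases before the start site. Fgfr1 and Etv4 had no window. The result for Spry4 was left out after the search, so whether its window holds these letters is not described. The letters occur in 12% of all windows. A match describes the letters and is not evidence of binding, and a window without them says nothing about the factor.

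Of the 10 genes, 1 was lower, 0 were higher and 9 did not pass at a limma adjusted p of 0.05. Over all 19938 genes, 8.49% were called, 3.36% as higher and 5.13% as lower. By unadjusted p, Fgfr3 and Spry2 were under 0.05 (0.000745 and 0.0105), as were 22.1% of all genes, and they were also the only members whose groups did not overlap, as was the case for 27.6% of all genes. The median difference of the 10 genes was 0.023 on log2, beside 0.0033 for all genes. All 4 receptors had a difference below 0 and all 6 feedback genes had one above 0. For Fgfr2, Fgfr4, Spry1, Dusp6 and Etv4 the sign turned when 1 array was left out.

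**Figure D1:**
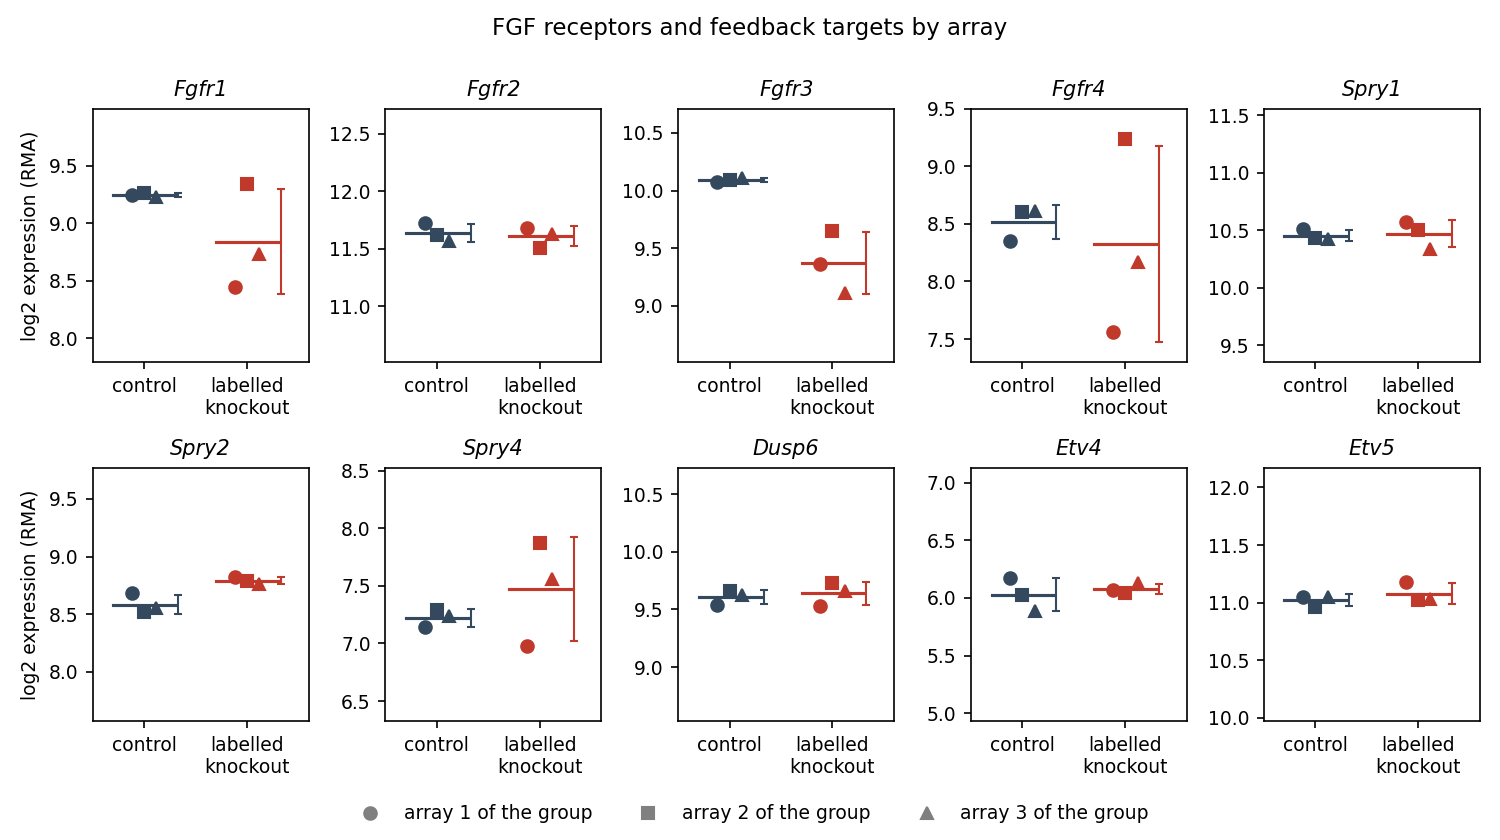
Log2 expression (RMA) of the 10 genes on the 3 control arrays and the 3 arrays labelled knockout, 1 panel per gene with an axis of equal length. Points are arrays (marker shapes give the array number), horizontal bars group means and error bars SD. Fgfr3 is lower on all 3 arrays labelled knockout, while Fgfr1, Fgfr4 and Spry4 spread widely on those arrays.

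Fgfr3, a receptor for Fgf1, Fgf9 and Fgf18 among others, was the 1 member that changed. It read 9.36, 9.65 and 9.11 on the arrays labelled knockout, against 10.07, 10.09 and 10.11 in the controls. Every array labelled knockout was below every control array, and the control arrays lay within 0.04 of each other. The group means were 9.37 ± 0.27 and 10.09 ± 0.02 (SD, n = 3 each). The difference was -0.72 ± 0.13 (SE) on log2, or 1.64-fold lower, with a 95% interval of -1.02 to -0.42 (limma adjusted p = 0.0181). Leaving out control 1, control 2 or control 3 ended the call (limma adjusted p = 0.0732, 0.0788 and 0.0869), while the difference stayed between -0.73 and -0.71 in these fits.

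Markers of ciliated cells and some of club cells were lower on the same arrays. All 10 measured ciliated cell markers fell, beside 5.13% of all genes. Their summed level was 12.08 to 12.63 on the arrays labelled knockout, against 13.18 to 13.23 in the controls. Of 7 club cell markers 4 fell (Scgb3a2, Aldh1a1, Hp and Cyp2f2), and the summed level was 14.57 to 14.83 against 14.91 to 14.99. The mean level of the club markers overlapped, at 11.22, 10.71 and 11.63 on knockout 1, 2 and 3 and 11.34 to 11.58 in the controls, and Scgb3a1 (0.083) and Bpifa1 (0.51) had differences above 0 without a call. No marker of either list lay below the array median. In pooled RNA, fewer cells of a type and less RNA per cell cannot be told apart, and the part of these cells in the Fgfr3 difference was not tested. Within the arrays labelled knockout the order differed: Fgfr3 was highest on knockout 2, and the ciliated markers were highest on knockout 1, with mean levels of 8.91, 8.5 and 8.3 on knockout 1, 2 and 3.

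The genes whose values over the 6 arrays followed those of Fgfr3 most closely were Top3b, a topoisomerase (Pearson r = 0.998), Pir, the iron-binding protein pirin (r = 0.998), and the amino acid transporter Slc38a6 (r = 0.993). These are descriptions over 6 arrays that also share the split into groups. Top3b read 8.81, 8.88 and 8.72 on the arrays labelled knockout, against 9.03, 9.02 and 9.03 in the controls. Pir covered a wider range, with 8.59, 8.86 and 8.19 against 9.4, 9.42 and 9.41. As with Fgfr3, both were highest on knockout 2 and lowest on knockout 3 within their group.

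Fgfr2, the epithelial receptor for Fgf7 and Fgf10, read 11.68, 11.51 and 11.63 on the arrays labelled knockout, against 11.72, 11.62 and 11.57 in the controls. The groups overlapped throughout. The difference was -0.03 ± 0.07 (SE) on log2 with a 95% interval of -0.19 to 0.13 (limma adjusted p = 0.859). The interval does not reach the difference seen for Fgfr3, and it leaves room for smaller shifts either way. The splice forms of Fgfr2 are not told apart by 1 probe set.

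Fgfr1, a receptor known mainly from mesenchymal cells, read 8.45, 9.34 and 8.73 on the arrays labelled knockout, against 9.25, 9.26 and 9.23 in the controls. Knockout 1 and knockout 3 lay below the controls, and knockout 2 lay above them. The difference was -0.41 ± 0.20 (SE) on log2 (95% interval -0.89 to 0.07; limma adjusted p = 0.310). Without knockout 2 it was -0.66 and passed (limma adjusted p = 0.0118), so 1 array decided this call.

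Fgfr4 had the widest spread of the 10 genes. It read 7.56, 9.24 and 8.17 on the arrays labelled knockout, with knockout 2 above and the other 2 below all control arrays (8.35, 8.6 and 8.61). The range of 1.68 among the arrays labelled knockout compares with 0.26 among controls, and 0.471% of all genes had a wider range on the arrays labelled knockout. The difference between groups was -0.20 ± 0.38 (SE) on log2 with an interval of -1.09 to 0.70 (limma adjusted p = 0.833). Without knockout 1 its sign turned, to 0.19.

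Among the feedback inhibitors, Spry2, a Sprouty protein that dampens receptor signalling to ERK, came closest to a call. It read 8.82, 8.79 and 8.76 on the arrays labelled knockout, against 8.68, 8.52 and 8.55 in the controls. The groups did not overlap, and the difference was 0.21 ± 0.06 (SE) on log2, with an interval of 0.066 to 0.35 and a limma adjusted p = 0.0891. No array left out brought it past the threshold.

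Spry1, its relative, read 10.57, 10.5 and 10.34 against 10.51, 10.43 and 10.42, with overlapping groups. The difference of 0.017 ± 0.072 (SE) on log2 was smaller than the spread within either group (limma adjusted p = 0.933, 95% interval -0.15 to 0.19). Dusp6, the phosphatase that acts on ERK in the cytoplasm, read 9.53, 9.73 and 9.66 against 9.54, 9.66 and 9.63. Its values overlapped too, with a difference of 0.030 ± 0.069 (SE) and an interval of -0.13 to 0.19 (limma adjusted p = 0.861).

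Spry4 differed from the other Sprouty genes in its spread. It read 6.98, 7.87 and 7.56 on the arrays labelled knockout, against 7.14, 7.29 and 7.24 in the controls. Knockout 2 and knockout 3 were above the controls and knockout 1 below them. The difference was 0.25 ± 0.20 (SE) on log2 (95% interval -0.24 to 0.73; limma adjusted p = 0.560). Without knockout 1 it was 0.49 and passed (limma adjusted p = 0.0301).

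The ETS factors were near level. Etv5 was measured by 2 probe sets that the annotation assigns to the same transcripts. The brighter one read 11.18, 11.02 and 11.03 on the arrays labelled knockout, against 11.05, 10.96 and 11.05 in the controls, and the other read 10.51, 10.49 and 10.44 against 10.38, 10.4 and 10.55. In both the groups overlapped, and the differences were 0.057 ± 0.064 and 0.037 ± 0.062 (SE) on log2. Their 95% intervals ran from -0.094 to 0.21 and from -0.11 to 0.18 (limma adjusted p = 0.687 and 0.807). Etv4 was dim, with all 6 values below the array medians of 6.77 to 6.81. It read 6.07, 6.04 and 6.13 against 6.17, 6.03 and 5.89 and differed by 0.050 ± 0.078 (SE; 95% interval -0.14 to 0.24; limma adjusted p = 0.787).

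**Figure D2:**
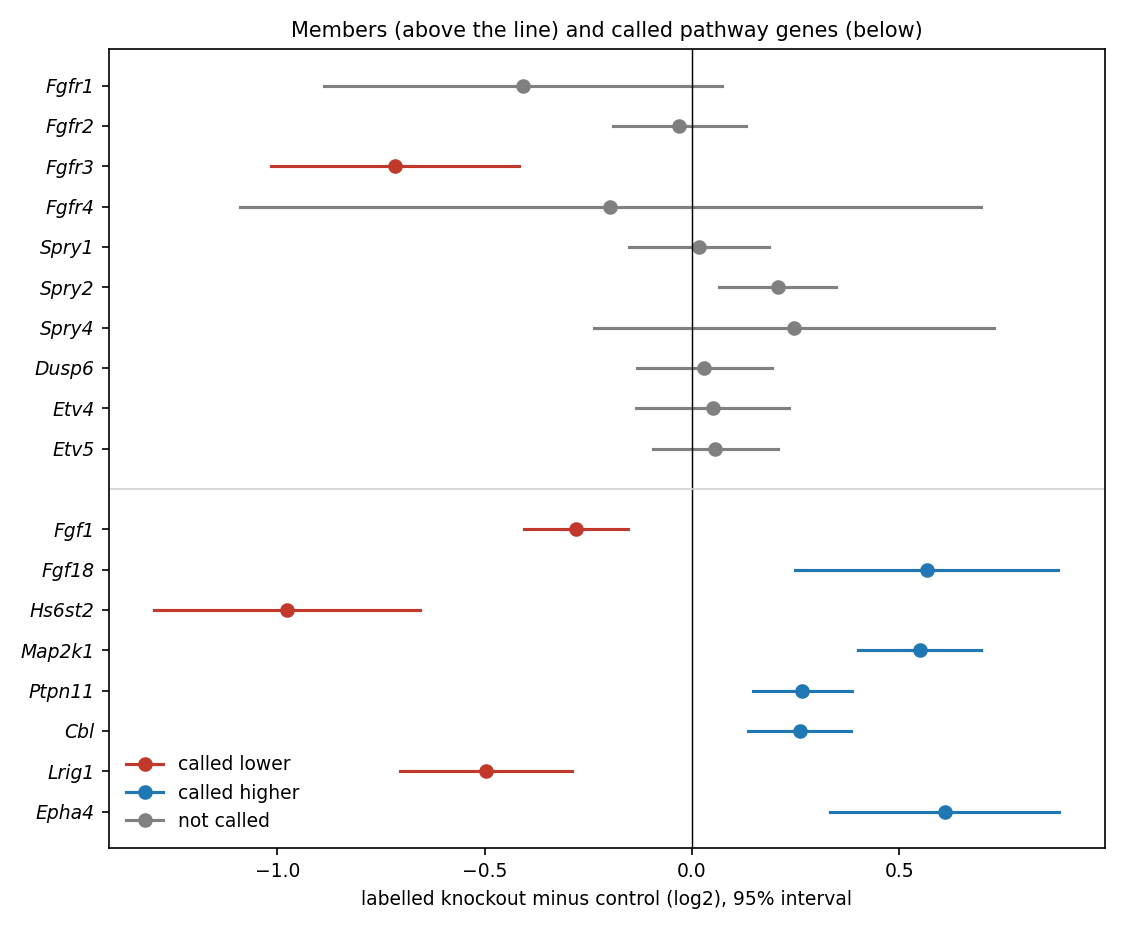
Difference between the arrays labelled knockout and the control arrays on log2 with its 95% interval (limma), for the 10 genes (above the line) and the 8 other pathway genes that were called (below it). Fgfr3 is the 1 member called. The intervals of Fgfr2, Spry1, Dusp6, Etv4 and Etv5 are narrow and include 0, and those of Fgfr1, Fgfr4 and Spry4 are wide.

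Fgfr1, Fgfr4 and Spry4 shared an order of arrays: knockout 1 was lowest, knockout 3 intermediate and knockout 2 highest. This order, with at least 0.5 on log2 between knockout 1 and knockout 2, was picked after the values were seen. It held for 3 of 10 members, for 3 of 22 genes of the FGF family (Fgf2, Fgf7 and Fgf10) and for 3.17% of all genes. Fgf10, the ligand that drives branching in the embryonic lung, read 6.8, 8.51 and 7.43 on the arrays labelled knockout, against 7.78, 7.98 and 7.9 in the controls. Fgf7, the keratinocyte growth factor, read 7.32, 9.07 and 7.7 against 8.21, 8.72 and 8.5. Both ligands are made by mesenchymal cells, and for both the arrays labelled knockout enclosed the controls. Their differences were -0.31 ± 0.38 and -0.45 ± 0.42 (SE) on log2 (limma adjusted p = 0.723 and 0.614), and both passed as lower without knockout 2 (-0.77 and -0.97; limma adjusted p = 0.0478 and 0.0232).

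The same order held for 6 of 12 mesenchymal markers (Col1a2, Pdgfra, Tcf21, Tbx4, Mfap4 and Fn1) and for 0 of the markers of any other cell type examined. The widest range on the arrays labelled knockout was 0.21 among type II markers and 0.32 among macrophage markers. Both are under the 0.5 that the order requires, so these 2 lists could not have shown it. Of the other 6 mesenchymal markers, Dcn, Acta2 and Lum were instead highest on knockout 1 among the arrays labelled knockout. The platelet-derived growth factor receptor Pdgfra, a fibroblast marker, read 9.12, 11.08 and 10.18 on the arrays labelled knockout, against 10.23, 10.8 and 10.62 in the controls. The mesenchymal transcription factor Tcf21 read 7.74, 10.04 and 8.9 against 8.78, 9.21 and 9.07. The matrix protein decorin (Dcn) went the other way on knockout 1, with 11.41, 10.63 and 10.48 against 11.54, 11.12 and 10.92. The summed level of the 12 markers was 13.79, 14.5 and 13.97 on knockout 1, 2 and 3 and 13.99 to 14.06 on the control arrays, and 0 of the 12 were called by limma, with 1 at an unadjusted p under 0.05. Lum alone lay below the array median throughout. The part of these cells in the values of Fgfr1, Fgfr4, Spry4, Fgf7 and Fgf10 was not tested.

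**Figure D3:**
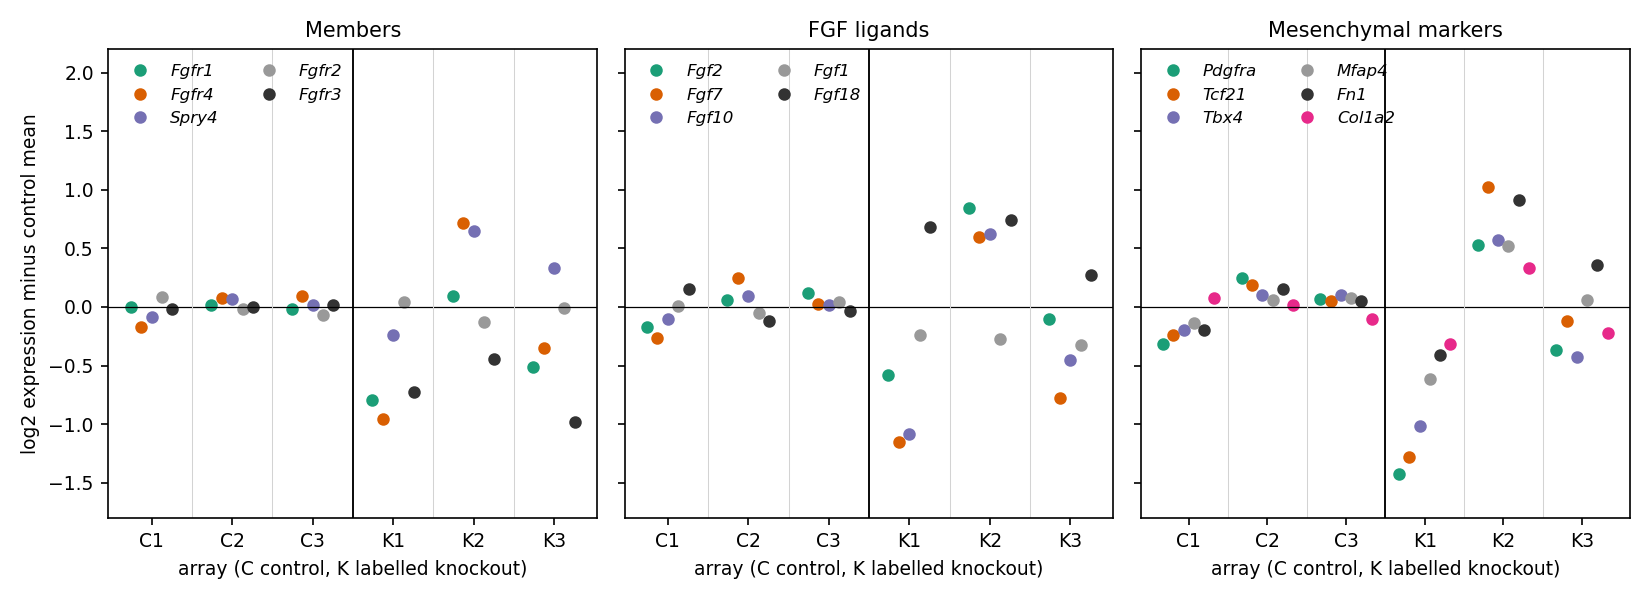
Log2 expression minus the control mean of the same gene, by array (C1 to C3 control, K1 to K3 labelled knockout), for members, FGF ligands and mesenchymal markers. Each of Fgfr1, Fgfr4, Fgf7, Fgf10, Pdgfra, Tcf21 and Tbx4 has its lowest value on K1 and lies above its control mean on K2. Fgfr2 and Fgf1 stay close together on the arrays labelled knockout, and Fgfr3 is below 0 on each of them.

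Among 22 genes of the FGF family 1 fell, 1 rose and 20 did not pass, with a median difference of -0.033 on log2. The share called among all genes was 8.49%, 3.36% as higher and 5.13% as lower. Fgf1, a ligand that binds all FGF receptors, fell by 0.28 ± 0.05 (SE). It read 10, 9.97 and 9.92 on the arrays labelled knockout, against 10.25, 10.19 and 10.29 in the controls (limma adjusted p = 0.0232, but 0.0551 with the replicate number as a block). Fgf18, a ligand of Fgfr3 in cartilage and a growth factor of the forming alveoli, rose by 0.57 ± 0.13 (SE), with 8.97, 9.03 and 8.56 against 8.44, 8.17 and 8.25 (limma adjusted p = 0.0481). For both genes the groups did not overlap, as was the case for 27.6% of all genes. The Fgf1 call was lost without knockout 3 or any 1 control array (limma adjusted p of up to 0.101), and that of Fgf18 without any 1 array other than knockout 3 (up to 0.176). Fgf15 (-0.25 ± 0.08; limma adjusted p = 0.123) and Fgf9 (-0.14 ± 0.05; limma adjusted p = 0.170) came next, and Fgf15 passed without knockout 1 (limma adjusted p = 0.0225).

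Of 17 measured co-receptors, decoy receptors and heparan sulfate genes 1 fell and 16 did not pass, beside 8.49% of all genes called, 5.13% as lower. Hs6st2, an enzyme that adds sulfate to heparan sulfate, fell by 0.98 ± 0.14 (SE) on log2, or 1.97-fold. It read 6.46, 6.29 and 5.89 on the arrays labelled knockout, against 7.17, 7.18 and 7.22 in the controls (limma adjusted p = 0.00848, but 0.0536 without control 3). Its order within the arrays labelled knockout was that of the ciliated marker mean, and the part of those cells was not tested. Its relative Hs6st1 read between 8.13 and 8.28 on all 6 arrays. The adhesion protein Flrt3 (0.41 ± 0.14; limma adjusted p = 0.146), the proteoglycan Sdc1 (0.15 ± 0.06; 0.203) and Flrt1 (-0.14 ± 0.06; 0.247) did not pass.

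Within the adaptors and the Ras-ERK cascade 3 of 18 measured genes rose and 0 fell, with a median difference of 0.073 on log2. Of all genes, 3.36% were called higher and 5.13% lower. Map2k1, the kinase MEK1 that phosphorylates ERK, read 9.08, 9.16 and 9.25 on the arrays labelled knockout, against 8.65, 8.64 and 8.55 in the controls. It was 1.46-fold higher (0.55 ± 0.06 SE on log2; limma adjusted p = 0.0053), and the call held whichever array was left out. Map2k2, its close relative, read 8.51 to 8.62 against 8.48 to 8.53 (0.073 ± 0.053 SE; limma adjusted p = 0.5).

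The phosphatase Ptpn11 (SHP2), which passes the receptor signal on to Ras, rose by 0.27 ± 0.05 (SE; limma adjusted p = 0.0236), and the ubiquitin ligase Cbl, which marks activated receptors for degradation, rose by 0.26 ± 0.05 (SE; limma adjusted p = 0.0276). Both shifts were small, at 1.2-fold, and with the replicate block neither passed (limma adjusted p = 0.0507 and 0.0610). Without knockout 3 or any 1 control array neither passed, nor did Cbl without knockout 1 (limma adjusted p of up to 0.116). The adaptor Shc1 stood at 0.18 ± 0.07 (limma adjusted p = 0.187, but 0.0448 without knockout 1).

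**Figure D4:**
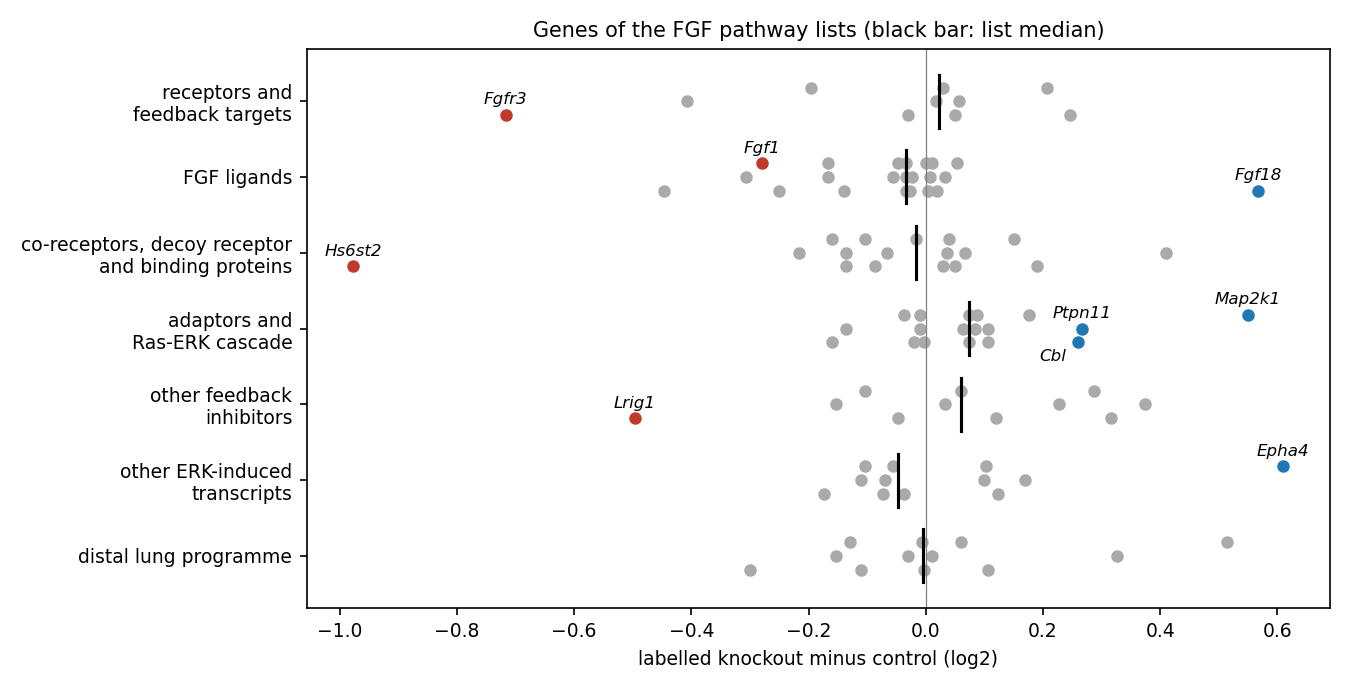
Difference between the arrays labelled knockout and the control arrays on log2 for each measured gene of the 7 FGF pathway lists, 1 point per gene, with called genes in blue (higher) or red (lower) and named, and a black bar at each list's median. Most points lie near 0, and list medians run from -0.047 to 0.073.

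Of 11 further feedback inhibitors of receptor tyrosine kinases 1 fell and 10 did not pass, beside 8.49% of all genes called, 5.13% as lower. By limma, 6 had an unadjusted p under 0.05, beside 22.1% of all genes. The groups did not overlap for 6, beside 27.6% of all genes. Differences were above 0 for 7 of the 11 and below 0 for 4. Lrig1, a membrane protein that lowers the level of ErbB receptors, fell by 0.50 ± 0.09 (SE) on log2. It read 8.44, 8.17 and 8.25 on the arrays labelled knockout, against 8.89, 8.78 and 8.68 in the controls (limma adjusted p = 0.0184), and the call was lost when knockout 3 or 1 of the controls was left out (limma adjusted p of up to 0.0813). The Sprouty-related inhibitors Spred2 and Spred1 stood at 0.32 ± 0.08 and 0.23 ± 0.07 (limma adjusted p = 0.0562 and 0.127), and the nuclear phosphatase Dusp4 at 0.37 ± 0.10 (limma adjusted p = 0.0646). Their groups did not overlap in any of the 3, as was the case for 27.6% of all genes. Dusp4 passed with the replicate block and with the filter on level (limma adjusted p = 0.0311 and 0.0467). Spred2 passed without knockout 1 (0.0285) and in each setting with all 6 arrays other than the block (0.0317 to 0.0487).

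Among 12 other ERK-induced transcripts 1 rose and 11 did not pass, beside 8.49% of all genes called, 3.36% as higher. Epha4, an ephrin receptor, rose by 0.61 ± 0.12 (SE) on log2, with 7.49, 7.39 and 7.85 on the arrays labelled knockout, against 7, 6.9 and 7 in the controls (limma adjusted p = 0.0243). It was not called when 1 of the controls was left out (limma adjusted p of up to 0.106). The other 3 with the smallest p were Maff (-0.11 ± 0.05; limma adjusted p = 0.251), Ets2 (0.12 ± 0.06; 0.262) and Plaur (0.10 ± 0.06; 0.420). The list median was -0.047.

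In the list of the distal lung programme that Fgf10 supports in the embryo, 0 of 12 genes passed by limma, and 4 had an unadjusted p under 0.05, beside 22.1% of all genes. These were the hedgehog ligand Shh (-0.30 ± 0.07 on log2; limma adjusted p = 0.0514), the growth regulator Mycn (0.51 ± 0.13; 0.0529) and the forkhead factors Foxp2 (0.33 ± 0.10; 0.107) and Foxa1 (-0.15 ± 0.06; 0.214). With the replicate number as a block Shh and Mycn passed (limma adjusted p = 0.0453 and 0.0445). They also passed without knockout 1 (0.0121 and 0.0330), and Mycn did without knockout 2 (0.0376). With array weights Shh, Mycn and Foxp2 passed (0.0260, 0.0335 and 0.0338), Shh also with the filter on level (0.0347) and Mycn with median centring (0.0320). Over all 92 other pathway genes measured, 5 rose, 3 fell and 84 did not pass. Of all 19938 genes, 8.49% were called, 3.36% as higher and 5.13% as lower. The median difference of the 92 genes was -0.005, beside 0.0033 for all genes.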

How the data were processed

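The authors deposited log2 expression per probe set. Per the submitters' processing notes, they used RMA and Affymetrix Expression Console 1.1. RMA makes array distributions alike, so a shift shared by most genes would be removed, and bright genes are compressed. For arrays no read depth exists, and precision is limited by their number.

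Groups and replicate numbers came from the array titles. The titles hold further numbers that no label explains. The first of them differs between the groups, so a batch it might mark cannot be told apart from the group. Of 35556 probe sets, 21789 had 1 gene symbol. The one with the highest mean was used for each gene. Arrays labelled knockout and control were compared with limma 3.58.1 in R 4.3.3 (eBayes, no trend, two-sided, Benjamini-Hochberg over 19938 genes). The test was checked on simulated data with the same spread in both groups. That check does not cover the wider spread among the arrays labelled knockout.

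The members and lists were chosen with earlier results of these data known. Named were all members, up to 4 genes per list by smallest p, called markers, and the 3 genes most correlated with the member of smallest p. Fgf2, Fgf7, Fgf10, Hs6st1, Map2k2, Pdgfra, Tcf21, Dcn, Acta2 and Lum were named after their values were seen. So were Scgb3a1, Bpifa1, Aqp5, Hopx and the markers that share the array order.

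Same-numbered arrays deviated together (correlations 0.192, 0.103 and 0.111, each over the limit of 0.1), so the fit with the number as a block is given where it changes a call. The pairing rests on the values alone, since the labels do not say what the numbers mark. By Xist and the Y-linked genes, the pairs numbered 1 and 2 each join a male and a female pool. A call that changes with the block therefore rests on an uncertain pairing. Alternatives were the block, a variance trend, a level filter, the mean of a gene's probe sets, median centring, array weights and leaving out each array.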

Additional observations from a re-analysis of the deposited data

How the results depend on the processing

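Of the members, 0 were higher and 1 lower, and these counts held in each setting that kept all 6 arrays, the fit with the replicate number as a block included. When 1 array was left out, 0 to 1 members were higher and 0 to 2 lower. Of the 92 other pathway genes, 5 were higher and 3 lower. These became 8 higher with array weights, and 1 to 7 higher and 0 to 5 lower when 1 array was left out. Differences without a call changed sign as follows. Spry1 stood at -0.013 with array weights. When 1 array was left out, Fgfr2 ranged from -0.067 to 0.018, Fgfr4 from -0.66 to 0.19, Spry1 from -0.033 to 0.082, Dusp6 from -0.015 to 0.085, Etv4 from -0.02 to 0.12 and Fgf10 from -0.77 to 0.083. With 3 pools against 3, the exact permutation test (two-sided) cannot go below 0.1, which Fgfr3 and Spry2 reached. Median centring moved the median difference of all genes from 0.0033 to 0.033, and with it the Fgfr2 difference was 0.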
